A study of Rattus norvegicus with 3 samples.

Results

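The genes described here encode the enzymes that cut extracellular matrix and the proteins that hold those enzymes in check: the matrix metalloproteinases (Mmp genes), the tissue inhibitors of metalloproteinases (Timp genes), the ADAMTS proteases (Adamts genes) and the ADAMTS-like proteins (Adamtsl genes). They were chosen by symbol, by a rule that uses no measured value, and 49 of the 32883 genes in the tables matched: 22 Mmp, 4 Timp, 19 Adamts and 4 Adamtsl genes. They were measured in 3 retinal RNA libraries, depleted of ribosomal RNA, from Sprague-Dawley rats aged 60 days after birth (postnatal day 60). The CTL library is labelled as retina without treatment, although the protocol speaks of a sham operation, with a needle inserted in front of the lens and a pressure of 2.66 kPa. HIOP, for high intraocular pressure, is retina collected 12 h after 60 min at 110 mmHg in the eye, which stops retinal blood flow until the pressure is released. The HIOP_GSK library had the same ischemia and the same 12 h of survival, after a drug named only GSK had been injected into the anterior chamber 24 h before. No library from an eye given vehicle was analysed here, so the drug and the injection cannot be told apart, and the number of animals behind a library is not given in the sources used here.

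Metalloproteinases are made as inactive precursors with a zinc-binding catalytic site. Most Mmp proteins are secreted, some are anchored in the cell membrane, and the TIMP proteins block the catalytic site of the active enzymes. ADAMTS proteases carry thrombospondin repeats that hold them in the matrix, and several of them cut the large proteoglycans of neural tissue, whereas ADAMTS-like proteins have the repeats without the protease. In the retina, matrix metalloproteinases are known for the breakdown of the vascular basement membrane and of laminin around ganglion cells after injury.

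With 1 library per group no test was possible and no difference has a replicate check. Levels are CPM (counts per 1000000, scaled with TMM factors), a fold is a ratio of scaled counts, and the range in parentheses is its 95% exact interval, which covers counting error only. Total counts were 16090064 in CTL, 17221510 in HIOP and 15132754 in HIOP_GSK, and 3 counts, the most that a count of 0 allows, corresponded to 0.186, 0.175 and 0.197 CPM. Of the 49 genes, 37 reached 1 CPM in at least 1 library and were compared. Of the other 12, 4 (Mmp1b, Mmp11, Mmp27 and Mmp28) had no count in any library and 8 had between 2 and 16 counts in the library where they were highest. All 8 rod markers were present in each library, with a summed level of 27718 CPM in CTL, 26571 in HIOP and 19041 in HIOP_GSK. The same sums for 8 lens markers were 967, 2589 and 9371 CPM, and those for the 6 corneal and surface epithelium markers in the tables were 282, 22.4 and 84.0 CPM. Lens markers were thus highest in HIOP_GSK and epithelium markers in CTL, and the part of these tissues in the differences below was not tested. Fewer cells of a type and less RNA per cell cannot be told apart in such bulk libraries.

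Of the Mmp genes, 10 sit side by side on rat chromosome 8, with no other protein-coding gene between them in the RefSeq annotation of GRCr8, in the order Mmp13, Mmp12, Mmp1b, Mmp3, Mmp1, Mmp10, Mmp8, Mmp27, Mmp20 and Mmp7. The promoters of 5 of them are shown because neighbours in this row had very unequal levels after ischemia: Mmp3, Mmp10, Mmp13 and Mmp8 were higher in HIOP, while Mmp1 had no count there. Each is the 250 bases before the gene's start from RefSeq (GRCr8, a later build than the Rnor_6.0 of the count tables), 5′ to 3′, with capitals marking the AP-1 letters TGAGTCA or their reverse complement TGACTCA.
Mmp3 (chr8:12925031-12925280, plus strand): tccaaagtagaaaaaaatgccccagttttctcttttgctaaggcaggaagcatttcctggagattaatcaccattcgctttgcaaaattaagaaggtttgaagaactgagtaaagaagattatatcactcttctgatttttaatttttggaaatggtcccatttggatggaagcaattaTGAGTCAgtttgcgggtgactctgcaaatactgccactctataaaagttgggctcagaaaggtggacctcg
Mmp10 (chr8:12974457-12974706, plus strand): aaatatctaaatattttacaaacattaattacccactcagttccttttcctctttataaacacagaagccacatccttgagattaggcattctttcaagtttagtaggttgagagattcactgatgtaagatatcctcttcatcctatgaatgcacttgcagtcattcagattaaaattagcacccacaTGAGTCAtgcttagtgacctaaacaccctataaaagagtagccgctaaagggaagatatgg
Mmp13 (chr8:12782579-12782828, plus strand): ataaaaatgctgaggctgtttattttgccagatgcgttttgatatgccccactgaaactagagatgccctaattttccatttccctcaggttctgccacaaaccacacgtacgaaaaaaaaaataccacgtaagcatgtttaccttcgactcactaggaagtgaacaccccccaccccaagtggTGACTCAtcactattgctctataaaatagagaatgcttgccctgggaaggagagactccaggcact
Mmp8 (chr8:13008640-13008889, plus strand): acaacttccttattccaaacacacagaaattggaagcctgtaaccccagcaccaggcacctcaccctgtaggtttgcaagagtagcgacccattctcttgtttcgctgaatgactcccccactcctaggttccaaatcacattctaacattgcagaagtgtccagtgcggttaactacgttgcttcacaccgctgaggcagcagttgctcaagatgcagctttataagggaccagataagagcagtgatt
Mmp1 (chr8:12943203-12943452, plus strand): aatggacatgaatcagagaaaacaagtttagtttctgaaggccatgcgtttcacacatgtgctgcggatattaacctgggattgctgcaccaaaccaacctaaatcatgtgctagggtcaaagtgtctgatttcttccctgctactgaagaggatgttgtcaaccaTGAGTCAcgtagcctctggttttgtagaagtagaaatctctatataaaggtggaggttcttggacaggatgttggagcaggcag
The AP-1 letters, recognised by dimers of FOS and JUN proteins, occurred once in the promoters of Mmp3, Mmp10, Mmp13, Mmp12, Mmp7 and Mmp1. The match began 71 bases before the start in Mmp3, 61 in Mmp10, 66 in Mmp13, 87 in Mmp12, 80 in Mmp7 and 84 in Mmp1. In all, 6 of the 38 genes of these families with a promoter entry held them, all 6 in this row, against 4.42% of 27457 genes and 4.05% of 33469 promoters of that length. The TATA box letters TATAAA, searched on both strands and not overlapping the AP-1 letters, were in 13 of the 38, against 14.1% of all genes and 12.9% of all promoters. A match is a description of the letters. Mmp3, Mmp10, Mmp13, Mmp12 and Mmp7 have the letters and were higher in HIOP. Mmp1b, Mmp27 and Mmp20 lack them in this window and had no count in CTL or HIOP. Match and level differed in the others of the row: Mmp1 has the letters and no count in CTL or HIOP, and Mmp8 lacks them and was higher in HIOP. The part of the letters in these levels was not tested.

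HIOP was compared with CTL to describe the matrix protease genes of the retina after ischemia. The stromelysin genes Mmp3 and Mmp10, the inhibitor gene Timp1 and the proteoglycanase genes Adamts4, Adamts9 and Adamts1 were far higher in HIOP, while Timp3, both compared ADAMTS genes that process procollagen and 2 of 5 membrane-type Mmp genes were lower. Of the 37 compared genes, 13 were higher in HIOP by 2-fold or more and 8 were lower by as much, where 9.0% of all 15543 compared genes were higher by that limit and 8.04% lower. The median log2 ratio of the 37 was -0.26, beside 0.00 for all compared genes, and it was the same with Mmp8, which had no count in CTL, at its lower bound. Of the 13 higher genes, 8 were compared only because HIOP or HIOP_GSK reached 1 CPM so the filter itself favoured a higher level there. The other 5, Timp1, Adamts4, Adamts9, Adamts1 and Mmp14, were above 1 CPM in CTL too.

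**Figure D1:**
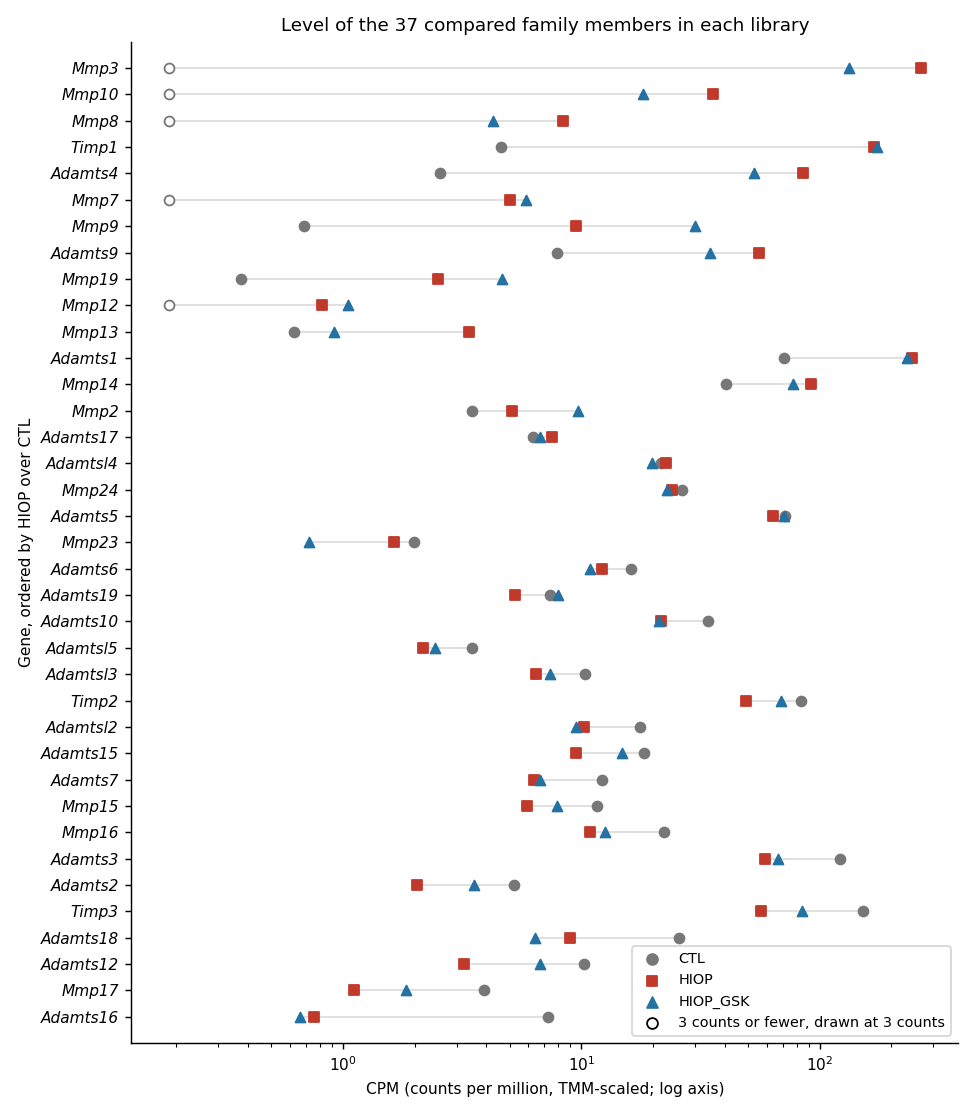
Level of each of the 37 compared genes in CPM on a log axis, with 1 marker per library (grey circle CTL, red square HIOP, blue triangle HIOP_GSK) and genes ordered by the HIOP over CTL ratio. Open markers had 3 counts or fewer and are drawn at 3 counts; the upper rows show genes near that floor in CTL, such as Mmp3 with 1 count, that reached up to 266 CPM in HIOP.

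Within the row on chromosome 8, 6 of the 10 genes were compared and all 6 were higher in HIOP by 2-fold or more, beside the 9.0% of all compared genes. Each of the 6 was compared only because an ischemic library reached 1 CPM, so the filter favoured that direction. Mmp3 encodes stromelysin-1, which cuts many matrix proteins and activates other Mmp precursors. It had 1 count in CTL, 4551 in HIOP and 2014 in HIOP_GSK, or 0.0621, 266 and 132 CPM, a 4279-fold ratio of HIOP over CTL (768 to 169052). CTL was at the floor and both ischemic libraries were high, so the size of the ratio rests on 1 CTL count. The log2 ratio of Mmp3 was 10.48, and 8.61 with a prior count of 10. It was 8.90 with 0.5 added to the deposited TPM (abundance scaled by transcript length).

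Mmp10, stromelysin-2, had 1, 613 and 277 counts in CTL, HIOP and HIOP_GSK, a ratio of 576 for HIOP over CTL (103 to 22802). Mmp3 and Mmp10 are close paralogs, so the split of reads between them is uncertain. Mmp8, the collagenase of neutrophil granules, had 0, 143 and 65 counts and was at least 44.8-fold higher in HIOP against the floor of 3 counts per library. Mmp7, matrilysin, an epithelial enzyme in other tissues, had 1, 86 and 89 counts, a ratio of 80.9 (14.1 to 3231). For these 3 genes, as for Mmp3, CTL lay far below both ischemic libraries. The log2 ratio of Mmp10 was 7.59, 5.74 with a prior count of 10 and 4.41 with the deposited TPM plus 0.5. That of Mmp7 was 4.79, 3.05 and 3.50 in the same order.

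Mmp13, collagenase-3, had 10, 58 and 14 counts and was 5.45-fold higher in HIOP than in CTL (2.76 to 12.0), with HIOP above both other libraries. Mmp12, the elastase of macrophages, had 1, 14 and 16 counts, a ratio of 13.2 (2.0 to 557) that rests on few reads. Its deposited TPM was 0.06 in CTL and 0.5 in HIOP, and with 0.5 added to each the log2 ratio was 0.84, within 2-fold. Mmp1 had 0, 0 and 4 counts, Mmp20, an enzyme of tooth enamel, had 0, 0 and 2, and Mmp1b and Mmp27 had none. The row therefore ran from 266 CPM for Mmp3 to no count for its neighbours Mmp1b and Mmp1 within the HIOP library.

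**Figure D2:**
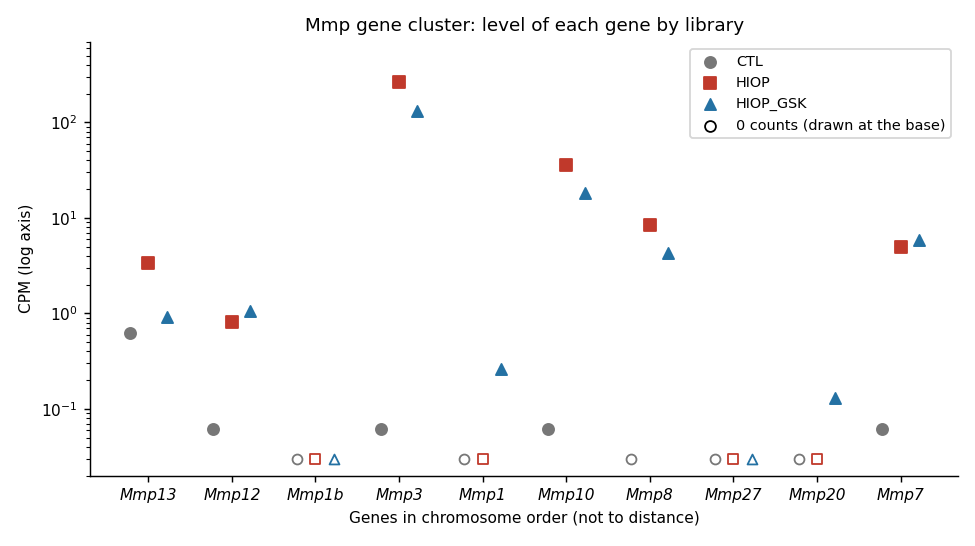
The 10 Mmp genes of chromosome 8 in chromosome order, not to distance, with the level in each library in CPM on a log axis; open markers had 0 counts and are drawn at the base. Mmp3 and Mmp10 were highest in HIOP at 266 and 35.8 CPM, and Mmp1b and Mmp27 had no count in any library.

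The gelatinases, which degrade denatured collagen and basement membrane, differed from each other. Mmp9 had 11 counts in CTL, 162 in HIOP and 457 in HIOP_GSK, or 0.683, 9.46 and 30.0 CPM, and was 13.8-fold higher in HIOP than in CTL (7.54 to 28.3). Mmp2 had 56, 88 and 147 counts and was 1.48-fold higher in HIOP (1.05 to 2.10), below 2-fold. Both genes were lowest in CTL and highest in HIOP_GSK.

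Mmp8, Mmp9 and Mmp12 are made by leukocytes in other tissues, so the leukocyte markers are given beside them. Of 10 neutrophil and monocyte markers, 7 were compared and all 7 were higher in HIOP by 2-fold or more, beside the 9.0% of all compared genes. The sum of the 10 was 12.2 CPM in CTL, 249 in HIOP and 313 in HIOP_GSK. Among the 10, S100a8, Cxcr2, Il1r2 and Trem1 had no count in CTL, and Mpo had none in any library. A marker without a count in CTL could be compared only if an ischemic library reached 1 CPM, so the filter favoured that direction. The 7 microglia and macrophage markers in the tables summed to 31.6, 23.8 and 79.8 CPM, with 1 higher and 3 lower in HIOP by 2-fold or more. Their part in the levels of Mmp8, Mmp9 and Mmp12 was not tested.

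Membrane-type Mmp genes, whose products are anchored at the cell surface, went in both directions. Mmp14, the membrane enzyme that activates the Mmp2 precursor, had 649, 1570 and 1173 counts in CTL, HIOP and HIOP_GSK and was 2.27-fold higher in HIOP (2.07 to 2.5). Mmp17 had 63, 19 and 28 counts and was 3.53-fold lower (2.08 to 6.24), and Mmp16 had 358, 187 and 192 counts and was 2.04-fold lower (1.70 to 2.44), a log2 ratio that was -0.99, within 2-fold, with a prior count of 10. Mmp14 was thus lowest in CTL, and Mmp16 and Mmp17 were highest there.

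Mmp15 had 187, 101 and 120 counts, a 1.97-fold lower level in HIOP (1.54 to 2.53) that lay just within the 2-fold limit. Mmp24, a membrane enzyme of neurons, had 425, 412 and 348 counts, and its interval for HIOP over CTL included no difference (1.10-fold lower, 0.956 to 1.26). Of the remaining Mmp genes, Mmp19 had 6, 43 and 71 counts and was 6.74-fold higher in HIOP (2.86 to 19.4). Mmp23 had 32, 28 and 11 counts, with CTL and HIOP close together and HIOP_GSK lowest.

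The order of the inhibitor genes differed between CTL and the ischemic libraries. Timp1, the inducible inhibitor and a gene of reactive glia, had 74 counts in CTL, 2898 in HIOP and 2645 in HIOP_GSK, or 4.60, 169 and 174 CPM. Its ratio was 36.8 for HIOP over CTL (29.2 to 47.0), and both ischemic libraries lay at nearly one level far above CTL. Timp3, the inhibitor bound to the matrix and abundant in the membrane under the pigment epithelium, had 2450, 975 and 1282 counts and was 2.67-fold lower in HIOP (2.48 to 2.88).

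Timp2, which also takes part in the activation of the Mmp2 precursor, had 1347, 839 and 1052 counts and was 1.71-fold lower in HIOP (1.57 to 1.86). Timp4 did not reach 1 CPM in any library and had 12, 1 and 1 counts. For Timp2, Timp3 and Timp4, CTL was the highest library. The 8 pigment epithelium markers were lower too: their sum was 572 CPM in CTL, 305 in HIOP and 323 in HIOP_GSK, and 5 of the 7 compared were lower in HIOP by 2-fold or more. Pericyte and smooth muscle markers summed to 288, 136 and 155 CPM, with 5 of 8 lower by that limit. Of the Müller glia markers 5 of 8 were lower and 2 higher, of the compared fibroblast and stroma markers 3 of 7 were lower, and of the corneal and surface epithelium markers 5 of 6 were lower. Not all lists were lower: of 7 compared endothelial markers 1 was lower and 1 higher, and none of 8 rod markers passed the limit. Lens markers were higher in 7 of 8 and lower in none. Of all compared genes, 8.04% were lower and 9.0% higher. The part of these cell types in the Timp3 level was not tested.

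On the deposited TPM, which is scaled by transcript length and allows genes to be compared with each other, the sum of the 4 Timp genes was 147 for CTL, 305 for HIOP and 366 for HIOP_GSK. Timp3 held 49.6%, Timp2 45.4% and Timp1 4.54% of that sum in CTL. In HIOP, Timp1 held 79.6%, Timp2 11.7% and Timp3 8.61%, and in HIOP_GSK the shares were 75.9%, 14.1% and 10.0%. Without Timp1, the sum was 140 TPM in CTL, 62.2 in HIOP and 88.3 in HIOP_GSK.

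The 22 Mmp genes summed to 45.3 TPM in CTL, 330 in HIOP and 221 in HIOP_GSK. Mmp14 led in CTL with 44.7% of the sum, followed by Mmp24 with 19.8% and Mmp16 with 14.7%. Mmp3, listed at a TPM of 0 in CTL, held 72.2% in HIOP and 58.0% in HIOP_GSK. Without Mmp3 the sums were 45.3, 91.8 and 92.9 TPM, so HIOP and HIOP_GSK were close in the sum of the other Mmp genes. Single genes within that sum differed in both directions. Mmp14 had 46.07 TPM in HIOP and 38.63 in HIOP_GSK, and Mmp10 had 10.15 and 5.86. Mmp9 had 4.22 and 13.46, and Mmp7 had 6.5 and 8.36. Summed Mmp TPM over summed Timp TPM was 0.309 in CTL, 1.08 in HIOP and 0.604 in HIOP_GSK; these are transcripts, and say nothing of active enzyme.

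**Figure D3:**
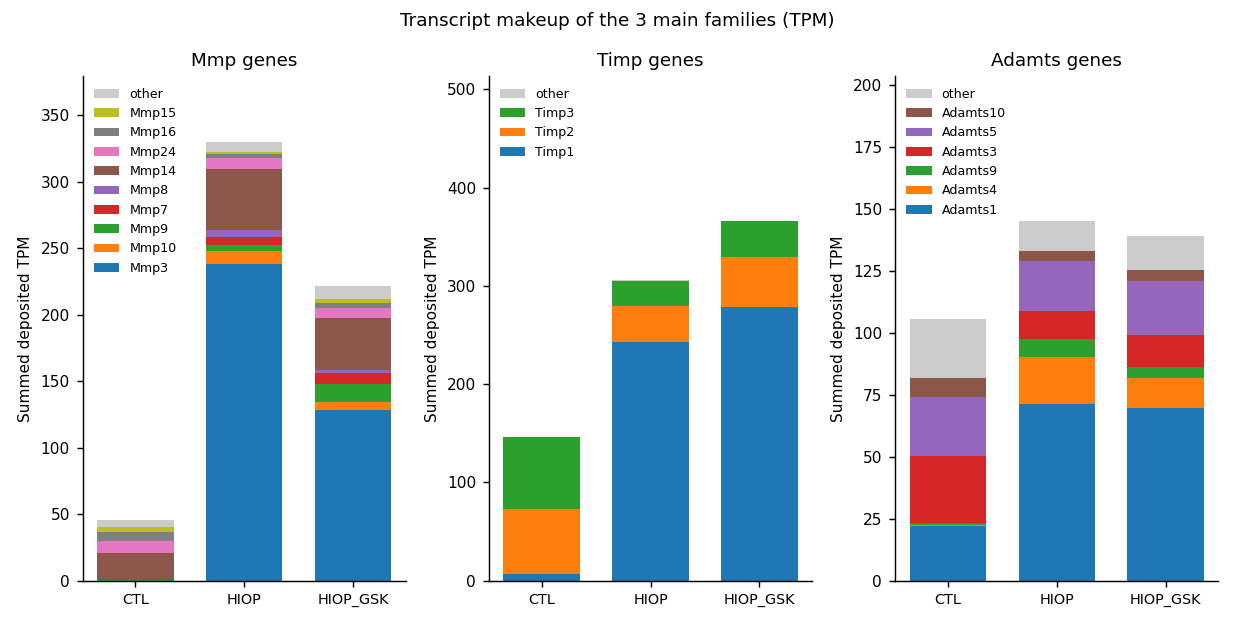
Deposited TPM summed over the Mmp, Timp and Adamts genes in each library, with each bar starting at 0 and split by gene; each panel has its own axis. Timp1 took 4.54% of the Timp sum in CTL and 79.6% in HIOP, and Mmp3, absent from the CTL bar, took 72.2% of the Mmp sum in HIOP.

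The ADAMTS proteases that cut proteoglycans of the aggrecan and versican group included the 3 Adamts genes higher in HIOP by 2-fold or more. Adamts4, an aggrecanase, had 41 counts in CTL, 1456 in HIOP and 810 in HIOP_GSK, or 2.55, 85.0 and 53.2 CPM, a ratio of 33.4 for HIOP over CTL (24.5 to 46.7). Adamts9 had 127, 953 and 528 counts and was 7.06-fold higher (5.86 to 8.56). For both, HIOP was highest and HIOP_GSK lay between the others.

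Adamts1, a versicanase that is also known to restrain blood vessel growth, had 1137, 4194 and 3556 counts and was 3.47-fold higher in HIOP (3.25 to 3.71). Adamts5, the other main aggrecanase, had 1151, 1093 and 1075 counts, with the 3 libraries close together (1.12-fold lower in HIOP, 1.03 to 1.22). Adamts15 had 294, 162 and 226 counts and was 1.93-fold lower (1.59 to 2.35). Adamts8 and Adamts20 did not reach 1 CPM, with at most 12 and 16 counts.

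None of the other 10 compared Adamts genes was higher in HIOP by 2-fold or more. Those that cut the end of procollagen were lower: Adamts3 had 1966, 1010 and 1018 counts and was 2.07-fold lower (1.92 to 2.24), and Adamts2 had 84, 35 and 54 counts and was 2.55-fold lower (1.70 to 3.90). The deposited TPM of Adamts2 was 1.14 in CTL and 0.49 in HIOP. With 0.5 added to each, its log2 ratio was -0.73, within 2-fold. The third of that kind, Adamts14, had at most 8 counts. The intervals of Adamts2 and Adamts3 reached below 2-fold, as did that of Mmp16, so 5 of the 8 lower genes had an interval wholly beyond 2-fold.

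Adamts16 had 117, 13 and 10 counts and was 9.57-fold lower in HIOP (5.38 to 18.5). Its log2 ratio was -3.06 from scaled counts, and its deposited TPM was 1.18 in CTL and 0.15 in HIOP. With 0.5 added to each TPM, the log2 ratio of Adamts16 was -1.37. That of Timp3, with 72.75 and 26.29 TPM, was -1.45 on the same scale. Adamts18 had 415, 154 and 97 counts and was 2.87-fold lower (2.38 to 3.47). Adamts12 had 166, 55 and 102 counts and was 3.21-fold lower (2.35 to 4.44). Adamts18 was lowest in HIOP_GSK and Adamts12 in HIOP, while Adamts16 was low in both ischemic libraries.

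The remaining 5, Adamts6, Adamts7, Adamts10, Adamts17 and Adamts19, lay within 2-fold, with log2 ratios from -0.94 for Adamts7 to 0.26 for Adamts17. Adamts13, which cuts von Willebrand factor in blood, had 7, 14 and 9 counts and was not compared. The 4 ADAMTS-like genes also lay within 2-fold, from -0.78 for Adamtsl2 to 0.07 for Adamtsl4.

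On the TPM scale the Adamts sum was 106 for CTL, 145 for HIOP and 139 for HIOP_GSK. Adamts1, Adamts4 and Adamts9 together made up 23.4 TPM in CTL, 97.5 in HIOP and 86.2 in HIOP_GSK, while the other 16 summed to 82.5, 47.9 and 52.9. Adamts3 was the most abundant in CTL with 25.4% of the sum, and Adamts1 was in HIOP with 49.1% and in HIOP_GSK with 50.1%.

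**Figure D4:**
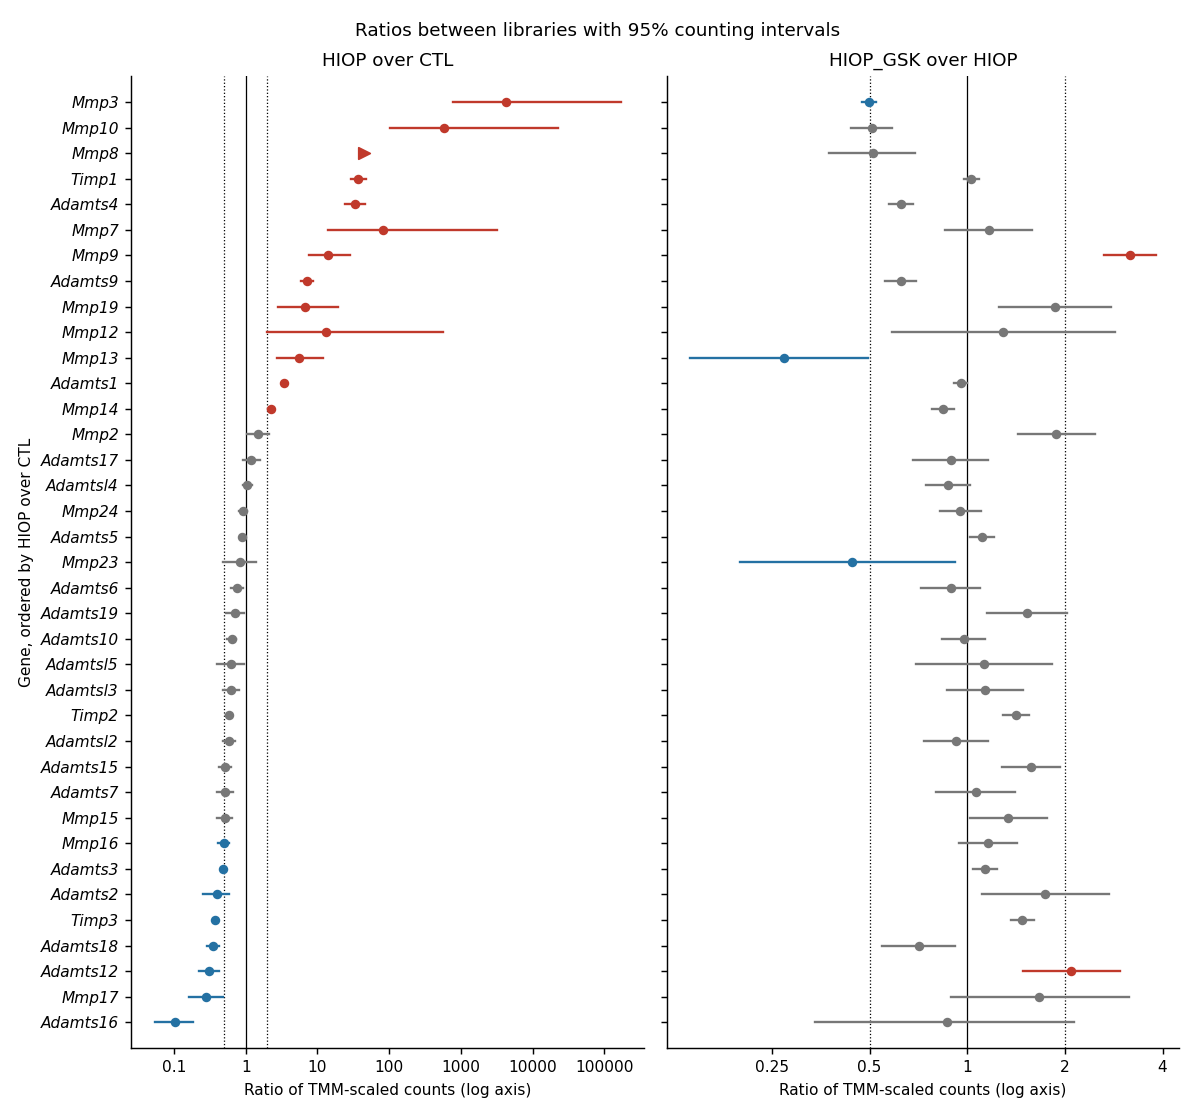
Ratio of TMM-scaled counts for the 37 compared genes on log axes, HIOP over CTL on the left and HIOP_GSK over HIOP on the right, with 95% counting intervals; the arrow is a lower bound, the solid line is no difference and the dotted lines are 2-fold. Red and blue mark genes higher and lower by 2-fold or more: 13 and 8 on the left, 2 and 3 on the right.

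HIOP_GSK was compared with HIOP to describe the ischemic retina with and without the drug. Mmp9 and Adamts12 were higher in HIOP_GSK, Mmp13, Mmp3 and Mmp23 were lower, and Timp1 was nearly equal. Of the 37 genes, 2 were higher and 3 lower by 2-fold or more, beside 4.56% and 1.69% of all compared genes. The median log2 ratio was 0.09, against 0.00 for all compared genes. This comparison shares the HIOP library with the one above, so a chance deviation of that library enters both with opposite sign.

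Mmp13 had 58 counts in HIOP and 14 in HIOP_GSK, or 3.39 and 0.920 CPM, and was 3.68-fold lower (2.03 to 7.15). Mmp3 was 2.01-fold lower (1.91 to 2.12), so its interval reached below the limit. Its log2 ratio was -0.99 with total counts and -0.89 with the deposited TPM plus 0.5. Mmp10, 1.97-fold lower (1.70 to 2.28), and Mmp8, 1.96-fold lower (1.45 to 2.66), lay just on the other side of the limit and had nearly the same ratio as Mmp3. Mmp7 and Mmp12, of the same row on chromosome 8, had intervals that included no difference (1.16-fold, 0.856 to 1.58, and 1.29-fold, 0.588 to 2.84). Mmp23 was 2.26-fold lower (1.09 to 5.04) on 28 and 11 counts, and lay within 2-fold with a prior count of 10 (log2 ratio -0.75).

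Mmp9, at 457 against 162 counts, was higher by 3.17-fold (2.65 to 3.82). Mmp2 was 1.88-fold higher (1.43 to 2.48), Mmp19 was 1.86-fold higher (1.25 to 2.78) and Adamts12 was 2.09-fold higher (1.49 to 2.95). The deposited TPM of Adamts12 was 0.4 in HIOP and 0.9 in HIOP_GSK. Its log2 ratio lay within 2-fold with 0.5 added to each TPM (0.64) and with a prior count of 10 (0.93). The microglia and macrophage markers moved in the same direction as Mmp9, with 7 of 7 higher by 2-fold or more in HIOP_GSK and none at 0, while of 7 compared neutrophil and monocyte markers 1 was higher and 1 lower by that limit. All 8 lens markers and all 6 corneal and surface epithelium markers were higher by 2-fold or more too. Of all compared genes, 4.56% were higher and 1.69% lower by that limit. In other lists, 3 of 8 Müller glia markers and 2 of 8 pericyte and smooth muscle markers were higher. So were 2 of 7 endothelial and 2 of 7 compared fibroblast and stroma markers, with none lower in any of these lists. Of the rod markers 1 of 8 was lower, and no pigment epithelium marker passed the limit. The part of these cell types and tissues in the levels of Mmp9, Mmp2 and Mmp19 was not tested.

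Among the inhibitors, Timp1 had a ratio of 1.03 (0.974 to 1.08), Timp2 was 1.41-fold (1.29 to 1.55) and Timp3 1.48-fold higher (1.36 to 1.61) in HIOP_GSK. Timp1 thus differed by less than its counting error, and Mmp3 did not. Of the proteoglycan-cutting genes, Adamts4 and Adamts9 were each 1.60-fold lower (1.47 to 1.74 and 1.44 to 1.79) and Adamts1 was 1.05-fold lower (1.0 to 1.10).

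Set beside CTL, HIOP_GSK had 12 of the 37 genes higher and 4 lower by 2-fold or more, as were 10.4% and 6.32% of all compared genes. The median log2 ratio was -0.21, against 0.00 for all compared genes. This comparison shares each of its libraries with one of the others. Mmp3 was 2130.5-fold higher than in CTL (382 to 84191), Mmp10 293-fold (52.2 to 11615), Mmp9 43.9-fold (24.3 to 88.7) and Timp1 37.8-fold (30.0 to 48.3). Mmp13 had 10 counts in CTL and 14 in HIOP_GSK, a ratio of 1.48 whose interval included no difference (0.612 to 3.73).

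Mmp2 passed 2-fold here, at 2.78-fold (2.03 to 3.85), and Mmp14 was 1.91-fold higher (1.74 to 2.11). The 4 lower genes were Adamts16 at 11.1-fold (5.81 to 23.7), Adamts18 at 4.04-fold (3.24 to 5.10), Mmp23 at 2.75-fold (1.35 to 6.05) and Mmp17 at 2.13-fold (1.34 to 3.45). Mmp23 and Mmp17 lay within 2-fold on the deposited TPM plus 0.5 (log2 ratios -0.95 and -0.81) and with a prior count of 10 (-0.96 and -0.88). Before 0.5 was added, the TPM of Mmp23 was 0.81 in CTL and 0.18 in HIOP_GSK, and that of Mmp17 was 1.87 and 0.85. Timp3 was 1.81-fold lower than in CTL (1.69 to 1.93) and Adamts3 1.83-fold lower (1.69 to 1.97). The log2 ratio of Adamts3 was -1.04, past 2-fold, on the deposited TPM plus 0.5.

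Other genes of the pathway came from lists of activators, further inhibitors, related proteases, substrates and inducers. Of 7 compared activators of metalloproteinase precursors, 2 were higher in HIOP by 2-fold or more and none lower. Of all compared genes, 9.0% were higher and 8.04% lower. The 2 were the plasminogen activator genes Plau and Plat. Plau had 9, 283 and 164 counts in CTL, HIOP and HIOP_GSK (29.6-fold, 15.4 to 65.3). Plat had 269, 1775 and 966 counts (6.20-fold, 5.45 to 7.08). The convertase genes Pcsk5 and Pcsk6, whose products trim precursors, had log2 ratios of -0.61 and -0.76. Both plasminogen activator genes were highest in HIOP.

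Of 9 compared genes for other inhibitors and for clearance, 3 were higher and 2 lower in HIOP by 2-fold or more. The shares of all compared genes were 9.0% and 8.04%. Tfpi2, a matrix-bound protease inhibitor, had 37, 162 and 68 counts (4.12-fold, 2.87 to 6.05). The thrombospondin genes Thbs1 and Thbs2 had 288, 2766 and 5434 counts and 196, 961 and 369 counts, so Thbs1 was highest in HIOP_GSK and Thbs2 in HIOP. The lower genes were those of the matrix proteoglycans Spock3 (2.59-fold, 2.34 to 2.87) and Spock1 (2.13-fold, 1.77 to 2.57), the latter named after its values were seen.

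Of 11 other metalloprotease genes, 2 were higher and 2 lower by that limit, beside 9.0% and 8.04% of all compared genes. Adam12 was 7.79-fold (6.23 to 9.85) and Adam8, a leukocyte protease, 2.18-fold higher (1.73 to 2.76). The log2 ratio of Adam8 was 0.63, within 2-fold, on the deposited TPM plus 0.5. Adam22 was 2.72-fold (2.46 to 3.00) and Adam23 2.15-fold lower (1.88 to 2.47). Adam22 and Adam23 are neuronal proteins without protease activity.

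Among 10 compared proteoglycan and link protein genes, which include substrates of the ADAMTS proteases, 2 were higher and 2 lower by 2-fold or more. For all compared genes these shares were 9.0% and 8.04%. Ncan, neurocan, had 236, 4562 and 4024 counts (18.2-fold, 15.9 to 20.8), and Vcan, versican, had 1972, 7638 and 4721 counts (3.64-fold, 3.47 to 3.83). Bcan, brevican, was 2.59-fold lower (1.42 to 4.97) and Hapln4, a link protein, 2.07-fold lower (1.48 to 2.93). On the deposited TPM plus 0.5, Bcan and Hapln4 lay within 2-fold (log2 ratios -0.84 and -0.92). Both the substrate gene Vcan and the versicanase genes Adamts1, Adamts4 and Adamts9 were higher in HIOP than in CTL.

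Of 11 compared AP-1 and cytokine genes known to induce Mmp genes, 10 were higher in HIOP by 2-fold or more and none lower. Of all compared genes, 9.0% were higher and 8.04% lower by that limit. Fosl1, an AP-1 subunit, had 3, 2172 and 656 counts, and the cytokine gene Il1b had 1, 868 and 451. Il6 and Osm had no count in CTL, with 140 and 97 counts in HIOP and 21 and 17 in HIOP_GSK. Fosl1, Il1b, Il6 and Osm lay below 1 CPM in CTL. They were compared only because an ischemic library reached 1 CPM, so the filter favoured a higher level there. In HIOP_GSK over HIOP, 4 of the 11 were lower by 2-fold or more and none higher, beside 1.69% and 4.56% of all compared genes. Fosl1 was 2.94-fold (2.70 to 3.22), Il6 5.93-fold (3.73 to 9.87) and Osm 5.07-fold lower (3.01 to 9.06), and the AP-1 gene Junb, named after its values were seen, was 2.20-fold lower (2.08 to 2.33).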

How the data were processed

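RNA of 3 rat retina libraries was analysed, 1 per group, prepared from 3 µg of RNA each after removal of ribosomal RNA, per the labels' protocols. The authors deposited for each gene a whole-number count, not normalized, and a TPM value (transcript abundance scaled by length to a fixed sum). STAR 2.5.4b, RSEM 1.3.1 and the build Rnor_6.0 are named per the submitters' processing notes, without their roles. The strand setting of the counting is one of the details not given in the sources used here. Counts of a gene with an antisense partner, such as Mmp24, are therefore uncertain, as are those of close paralogs. Of the deposited values of these genes, 4 had a count above 0 and a TPM of 0. The libraries have no replicate numbers to compare and no batch label.

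Counts were scaled with TMM factors from edgeR 4.0.16 in R 4.3.3 (CTL 1.000, HIOP 0.994, HIOP_GSK 1.006). Genes with at least 1 CPM in at least 1 library were compared. Log2 ratios used a prior count of 2, and the limit was 2-fold. Folds were calculated from scaled counts with no prior added, and have exact Clopper-Pearson intervals at 95%; against a count of 0, a floor of 3 counts per library gave a lower bound. These intervals treat each read as an independent molecule, which reads without molecular identifiers are not. The scaling and the calls were tested on simulated counts.

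The members were chosen by symbol. Members and lists were selected with earlier results of these data known. The value of 1 gene of the list of other inhibitors is not reported here. Members past 2-fold in any comparison or defining a subgroup are named, and of each pathway list up to 4 genes with the largest log2 ratio in HIOP over CTL. Further marker lists held 8 Müller glia genes (summed CPM 4367, 3272 and 4329 in CTL, HIOP and HIOP_GSK), 7 endothelial genes (701, 499.7 and 605) and 8 fibroblast and stroma genes (319, 244 and 328). Promoter sequences came from RefSeq (GRCr8) by symbol. They covered 38 of the 49 genes. Those without an entry were Adamts5, Adamts8, Adamts15, Adamts16, Adamts19, Mmp2, Mmp9, Mmp14, Mmp16, Mmp17 and Mmp19. Alternatives changed 1 choice at a time: the scaling (none beyond total counts; size factors of DESeq2 1.42.0; TMM after leaving out mitochondrial genes and the 20 highest genes), the values (deposited TPM plus 0.5), the filter (none or CPM 5), the prior count (0.5 or 10) and the limit (1.5-fold or 3-fold).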

Additional observations from a re-analysis of the deposited data

How the results depend on the processing

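No paired analysis was possible because each group has 1 library. Of 537 recomputed log2 ratios of the 23 genes past 2-fold in any comparison, none of those past 2-fold changed sign. Of the 537, 38 left the counting interval, 29 of them with the deposited TPM plus 0.5 and 9 with a prior count of 10. Below, TPM stands for the deposited TPM plus 0.5. With total counts Mmp3 in HIOP_GSK over HIOP was -0.99 and with TPM -0.89, within 2-fold. Also within it were, with TPM, Mmp12 (0.84) and Adamts2 (-0.73) in HIOP over CTL, Adamts12 (0.64) in HIOP_GSK over HIOP, and Mmp17 (-0.81) and Mmp23 (-0.95) in HIOP_GSK over CTL, where Adamts3 (-1.04) passed it. With a prior count of 10 they were Mmp16 (-0.99) in HIOP over CTL, Adamts12 (0.93) and Mmp23 (-0.75) in HIOP_GSK over HIOP, and Mmp17 (-0.88) and Mmp23 (-0.96) in HIOP_GSK over CTL. The counts of higher genes in HIOP and HIOP_GSK over CTL, 13 and 12, stayed within 1.5 times under each alternative. The 8 lower genes in HIOP over CTL were 16 at a limit of 1.5-fold and 3 at 3-fold. The median of that comparison, -0.26, was -0.13 without the filter and -0.40 with the filter at CPM 5, which test 43 and 31 genes. The 4 lower genes in HIOP_GSK over CTL were 2 with the filter at CPM 5, 2 with a prior count of 10, 11 at 1.5-fold and 2 at 3-fold. In HIOP_GSK over HIOP the 2 higher genes were 1 with TPM, 4 without the filter, 1 with a prior count of 10, 8 at 1.5-fold and 1 at 3-fold, and the 3 lower genes were 1 with the filter at CPM 5, 7 at 1.5-fold and 1 at 3-fold. Scaling choices moved the median of all compared genes by less than 0.1 on the log2 scale. Depth limits, among others, Mmp3, Mmp7, Mmp8, Mmp10, Mmp12, Mmp13, Mmp19, Mmp23 and Adamts16, each of which had 16 counts or fewer in at least 1 library of a comparison.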
